A study of Mus musculus with 18 samples.

Results

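En2, Crabp1, Olfml2a, Adam28, Scara5, Prune2, Ces2g and Sel1l3 are 8 of the 52636 genes counted in sorted mouse mammary cells. The genes were chosen by their counts, which were higher in N-gate cells of D542G mice than in N-gate cells of WT or Y541S mice. That comparison chose them, so their values in it are given as a description without a test. All 8 matched a gene identifier, all are protein coding, and all passed the filter on low counts that left 18298 genes for testing.

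The study compared 3 Esr1 genotypes, WT, D542G and Y541S. Esr1 encodes estrogen receptor alpha, and both mutations lie in its ligand-binding domain. Cells of the mammary gland were sorted by flow cytometry through a mature luminal (ML) gate or a second gate (N), which gave 6 groups of 3 libraries. All groups, WT included, came from mice of 6 months that carried estradiol and progesterone pellets and then received oral giredestrant at 30 mg/kg daily for 4 days, so no group was untreated. Giredestrant is an antagonist and degrader of the estrogen receptor. The labels give mature luminal cells as the source of both gates, and do not say which markers set the N gate, how the mutant alleles were made or expressed, or whether animals were pooled.

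The estrogen receptor is a transcription factor that binds its hormone, and in the mammary gland it is found in hormone-sensing luminal cells, which signal to their neighbours. Mutations of these residues are known from breast cancers that have become resistant to endocrine therapy, where the receptor can be active without hormone. The 8 genes belong to no single pathway. En2 (engrailed 2) is a homeobox transcription factor of the developing midbrain and hindbrain. Crabp1 is a cytosolic protein that binds retinoic acid. Olfml2a is a secreted extracellular matrix protein with an olfactomedin domain, Adam28 a membrane metalloprotease with a disintegrin domain, and Scara5 a class A scavenger receptor that takes up ferritin. Sel1l3 is a membrane protein with Sel1 repeats. Prune2 is an intracellular protein with a BCH domain, and Ces2g is a carboxylesterase, an enzyme that hydrolyses esters.

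Each library held between 34797778 and 49507144 counts in genes, and levels are given as CPM, the counts divided by the scaled library total and put on a common scale. Along the first principal component, which held 45.4% of the variance, ML libraries lay between -65.8 and -17.1 and N libraries between 33.1 and 78.5, except WT N 3 at -7.62. WT N 3 also stood apart in its pan-luminal keratin and adhesion markers (15855 CPM summed over 6 genes, against 1071 and 1452 in WT N 1 and 2) and in Esr1 (307 CPM, against 10.7 and 14.9). In D542G N, Esr1 was between 237 and 313 CPM, and in Y541S N between 49.9 and 112 CPM. Within its group, Y541S N 3 stood apart in epidermal markers (11645 CPM summed over 8 genes, against at most 15.2 in the other Y541S N libraries). In WT N 1 and 2 this sum was also high, at 3833 and 9953 CPM, against 468 CPM in WT N 3. Ratios between N groups are therefore also given without WT N 3 or Y541S N 3, as are differences between gates in WT that moved without WT N 3. Those without WT N 3 rest on WT N 1 and 2, with their epidermal markers, and are not the cleaner values. In D542G, summed markers of the N gate went against its labelled source. In D542G N the 10 basal and myoepithelial markers summed to between 14735 and 16574 CPM, against 188 to 442 CPM in D542G ML. The 9 hormone-sensing luminal markers summed to between 1673 and 1814 CPM, against 3688 to 6433 CPM in D542G ML. By edgeR (adjusted p under 0.05) 3 of the 10 were called higher and 2 of the 9 lower in D542G N. Of all tested genes, 9.2% were called in that comparison. Esr1, a member of the 9, went the other way, since D542G ML had only 161 to 216 CPM.

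The 8 genes lie on 6 chromosomes (GRCm38, GENCODE M21). En2 (ENSMUSG00000039095) lies at chr5:28165694-28172166 on the plus strand, and Sel1l3 (ENSMUSG00000029189) at chr5:53107083-53213927 on the minus strand. Scara5 (ENSMUSG00000022032, chr14:65666403-65764826, plus) and Adam28 (ENSMUSG00000014725, chr14:68606027-68655842, minus) start 2.94 Mb apart by their lower coordinates. Crabp1 (ENSMUSG00000032291) lies at chr9:54764748-54773110, Olfml2a (ENSMUSG00000046618) at chr2:38931978-38963753, Prune2 (ENSMUSG00000039126) at chr19:16956118-17223932 and Ces2g (ENSMUSG00000031877) at chr8:104961718-104969537, all on the plus strand. The counts are per whole gene, so exons and introns cannot be separated. Gene models that overlap 4 of the 8 genes held 0 counts in all libraries.

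RefSeq promoter windows (GRCm38.p6) matched 4 of the 8 genes, Crabp1, Olfml2a, Prune2 and Ces2g. They are shown because the genes were high in the same 3 libraries. The lines give the 250 bases before the start site, 5′ to 3′ on the plus strand, with capitals on matches to the GC box (GGGCGG) and the CCAAT box (CCAAT) on either strand, at chr9:54764498-54764747, chr2:38931730-38931979, chr19:16955868-16956117 and chr8:104961468-104961717 in that order.
Crabp1: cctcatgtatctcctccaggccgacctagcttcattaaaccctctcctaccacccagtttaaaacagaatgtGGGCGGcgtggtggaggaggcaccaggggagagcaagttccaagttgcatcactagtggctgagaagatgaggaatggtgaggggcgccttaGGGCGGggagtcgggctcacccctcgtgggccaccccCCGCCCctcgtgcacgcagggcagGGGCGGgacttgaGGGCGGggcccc
Olfml2a: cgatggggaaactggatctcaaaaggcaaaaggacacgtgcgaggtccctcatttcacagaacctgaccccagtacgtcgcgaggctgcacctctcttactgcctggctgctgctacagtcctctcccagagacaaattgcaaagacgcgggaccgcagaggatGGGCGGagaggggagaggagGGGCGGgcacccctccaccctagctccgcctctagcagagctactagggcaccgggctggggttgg
Prune2: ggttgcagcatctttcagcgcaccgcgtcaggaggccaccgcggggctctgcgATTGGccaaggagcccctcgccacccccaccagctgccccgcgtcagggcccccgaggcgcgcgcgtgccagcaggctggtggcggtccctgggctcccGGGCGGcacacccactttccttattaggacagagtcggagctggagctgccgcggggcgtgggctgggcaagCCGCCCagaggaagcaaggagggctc
Ces2g: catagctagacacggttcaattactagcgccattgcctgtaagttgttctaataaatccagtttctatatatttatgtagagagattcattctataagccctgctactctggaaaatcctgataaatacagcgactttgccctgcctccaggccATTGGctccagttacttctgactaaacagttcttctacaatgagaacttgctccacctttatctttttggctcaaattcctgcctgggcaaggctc

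Motifs were searched on both strands in the window that also holds 50 bases after the start. The Crabp1 window held 5 GC boxes, the Olfml2a and Prune2 windows 2 each, and the Ces2g window 0. Of all 32851 such windows, 35.7% held a GC box. The CCAAT box occurred once in the Prune2 window and once in the Ces2g window, and 37.4% of all windows held one. None of the 4 windows held an estrogen response element (GGTCA and TGACC around any 3 bases, in 0.07% of all windows), the receptor-binding motif AGGTCA (16.3%), an AP-1 site (TGANTCA, 7.81%) or TATAAA (13.6%). The response element and AGGTCA overlap where both are present. The GC content of the windows was 65% for Crabp1, 64.0% for Olfml2a, 72.7% for Prune2 and 43.0% for Ces2g, against a median of 52.7% over all windows. The windows of these 4 genes thus shared no motif among those searched, and Ces2g was the one below the median GC content.

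En2 was the member nearest to presence in 1 group and absence in the others. Its level in D542G N was 80.0, 42.7 and 49.9 CPM in libraries 1, 2 and 3. All 3 WT N and all 3 WT ML libraries had 0 counts, which allows at most 3 counts per library, or between 0.0594 and 0.0830 CPM over the 18 libraries. In Y541S N the level was 1.91, 0 and 0 CPM. The D542G N libraries did not overlap those of any other group, and 97.9% of the En2 CPM of the 18 libraries lay in them. The mean in D542G N was at least 760-fold higher than in WT N, computed against 3 counts per library (at least 752-fold without WT N 3), and 90.4-fold higher than in Y541S N (60.2-fold without Y541S N 3), where all counts came from library 1. In bulk libraries of this kind, fewer cells that express a gene and less RNA per cell cannot be told apart.

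Crabp1, the retinoic acid binding protein, was at 85.9, 103 and 70.5 CPM in D542G N. It was at 2.59, 2.15 and 3.31 CPM in WT N. In Y541S N it was at 26.3, 12.3 and 14.9 CPM, so that the 3 N groups formed 3 steps whose libraries did not overlap. The mean in D542G N, 86.6 ± 16.4 CPM (SD, n = 3), was 32.3-fold that in WT N and 4.85-fold that in Y541S N. Crabp1 was also the member with the smallest ratio of D542G N to Y541S N.

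**Figure D1:**
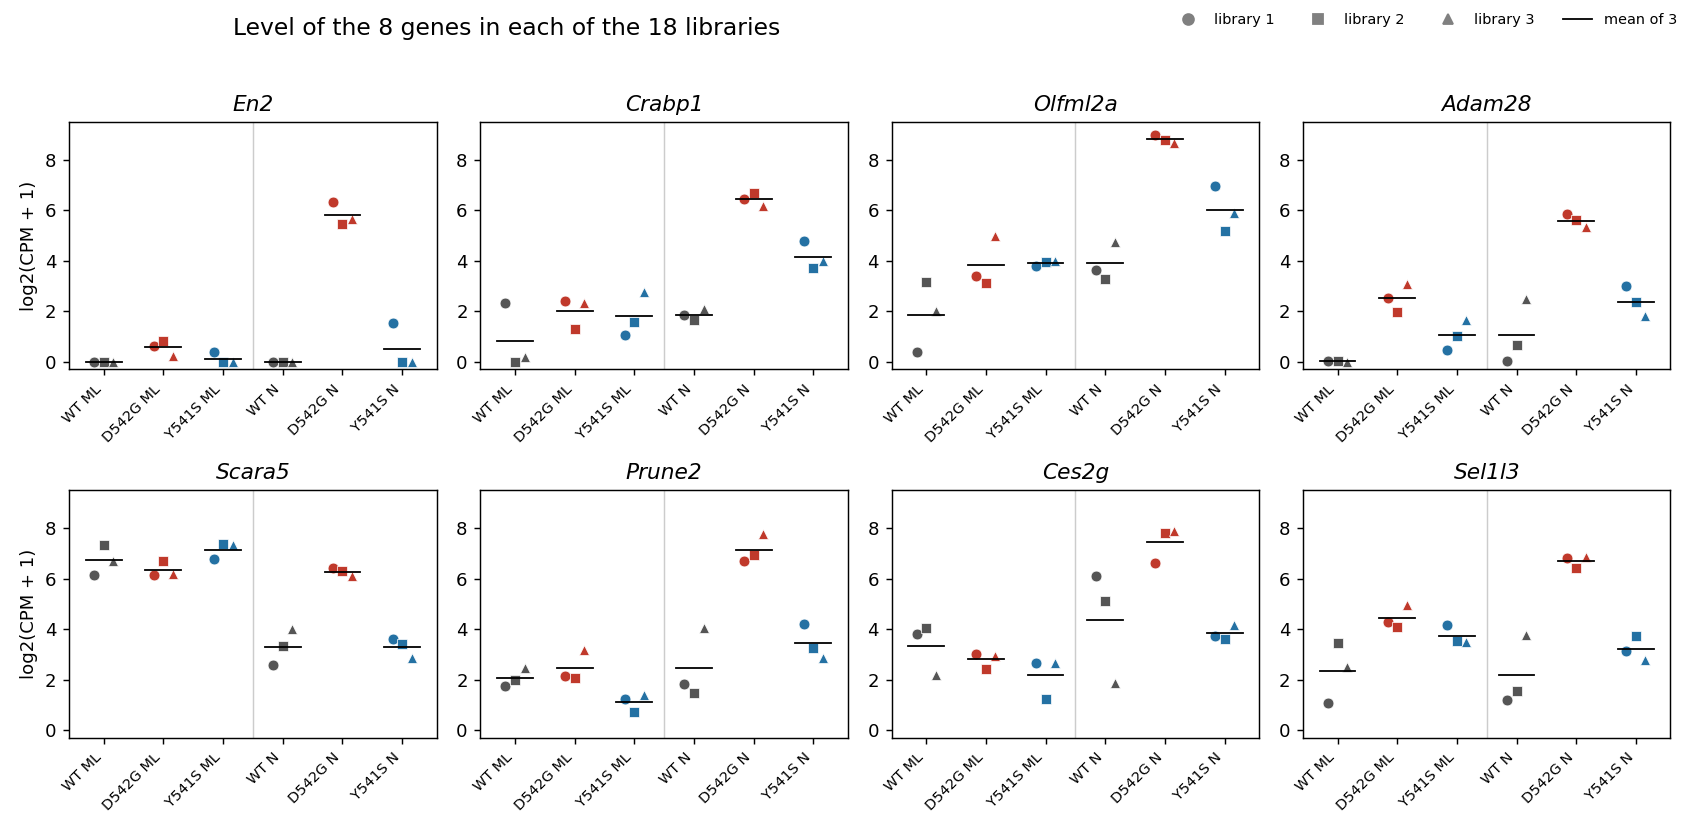
Level of each of the 8 genes in every library, as log2(CPM + 1) on the vertical axis, with the 6 groups on the horizontal axis, 1 point per library (circle, square and triangle for libraries 1, 2 and 3; grey WT, red D542G, blue Y541S) and a bar at the mean of the plotted values. In 7 panels the 3 D542G N points lie above all 15 other libraries, and in the Scara5 panel they lie among the ML libraries.

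Olfml2a, the olfactomedin-domain matrix protein, was at 507, 441 and 405 CPM in D542G N. Its level in WT N was 11.6, 8.82 and 25.9 CPM. In Y541S N the libraries had 126, 35.5 and 58.3 CPM, again between the other N groups and overlapping neither. The ratio of means was 29.2 against WT N (44.2 without WT N 3) and 6.17 against Y541S N.

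Adam28, the membrane metalloprotease, was at 56.4, 47.8 and 39.7 CPM in D542G N. In WT N the libraries had 0.03, 0.57 and 4.69 CPM, so the mean of that group rested on WT N 3. In Y541S N they had 6.95, 4.12 and 2.54 CPM. D542G N stood clear of both groups, which overlapped each other. The ratio of means against WT N was 27.2 with all libraries and 161 without WT N 3, and against Y541S N it was 10.6.

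Sel1l3, the membrane protein with Sel1 repeats, was at 112, 85.0 and 114 CPM in D542G N. It was at 1.31, 1.91 and 12.8 CPM in WT N and at 7.83, 12.2 and 5.79 CPM in Y541S N, groups that overlapped each other and not D542G N. The ratio to WT N was 19.4 (64.3 without WT N 3) and the ratio to Y541S N 12.

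Scara5, the ferritin receptor, had another pattern. In D542G N it was at 84.0, 78.6 and 68.2 CPM, above WT N at 5.01, 9.03 and 14.9 CPM and above Y541S N at 11.3, 9.63 and 6.17 CPM. In ML libraries it was at 69.0, 160 and 103 CPM in WT, at 69.6, 102 and 70.8 CPM in D542G and at 109, 162 and 158 CPM in Y541S. D542G N therefore overlapped WT ML and D542G ML, and the gene was high in D542G N only relative to the other N groups. From the highest mean to the lowest, the order was Y541S ML, WT ML, D542G ML, D542G N, WT N and Y541S N, and every pair of neighbours in it overlapped except D542G N and WT N. The ratio of means of D542G N was 7.98 to WT N and 8.51 to Y541S N.

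Prune2, the BCH-domain protein, was at 104, 122 and 220 CPM in D542G N. In WT N it was at 2.54, 1.78 and 15.3 CPM, and in Y541S N at 17.4, 8.50 and 6.17 CPM. WT N and Y541S N overlapped through WT N 3. The ratio of D542G N to WT N was 22.7 (68.7 without WT N 3) and that to Y541S N 13.9.

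Ces2g, the carboxylesterase, varied more in WT N than in its other groups, relative to its mean. It was at 68.6, 33.4 and 2.62 CPM there. In D542G N it was at 96.4, 224 and 236 CPM, and in Y541S N at 12.2, 11.2 and 16.9 CPM. Of the 8 genes it had the smallest ratio of its lowest D542G N library to its highest WT N library. Ces2g had the smallest ratio of the 8 to WT N, 5.32, and its ratio became smaller without WT N 3, at 3.63, where those of the other members with counts in WT N became larger. Reads of carboxylesterase paralogs can be split between near-identical genes, so levels of Ces2 genes are uncertain.

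In all 8 genes the 3 D542G N libraries were above the 3 WT N libraries, and in all 8 above the 3 Y541S N libraries. The choice of the genes used both contrasts, in which 13% and 12% of all tested genes had D542G N above the other group. For reference, 1.61% of tested genes were called higher in D542G N than in WT N and 0.421% higher than in Y541S N (edgeR, adjusted p under 0.05). In 7 of the 8, all but Scara5, the D542G N libraries were above all 15 other libraries, as in 2.5% of tested genes. The member closest to that limit was Ces2g, with 96.4 CPM in its lowest D542G N library against 68.6 CPM in WT N 1. Without WT N 3 the ratio to WT N was 36.6 for Crabp1 and 11 for Scara5, and without Y541S N 3 the ratios to Y541S N ran from 4.48 for Crabp1 to 60.2 for En2. The ratios with and without the libraries that stood apart are drawn in the plot of ratios between N groups.

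**Figure D2:**
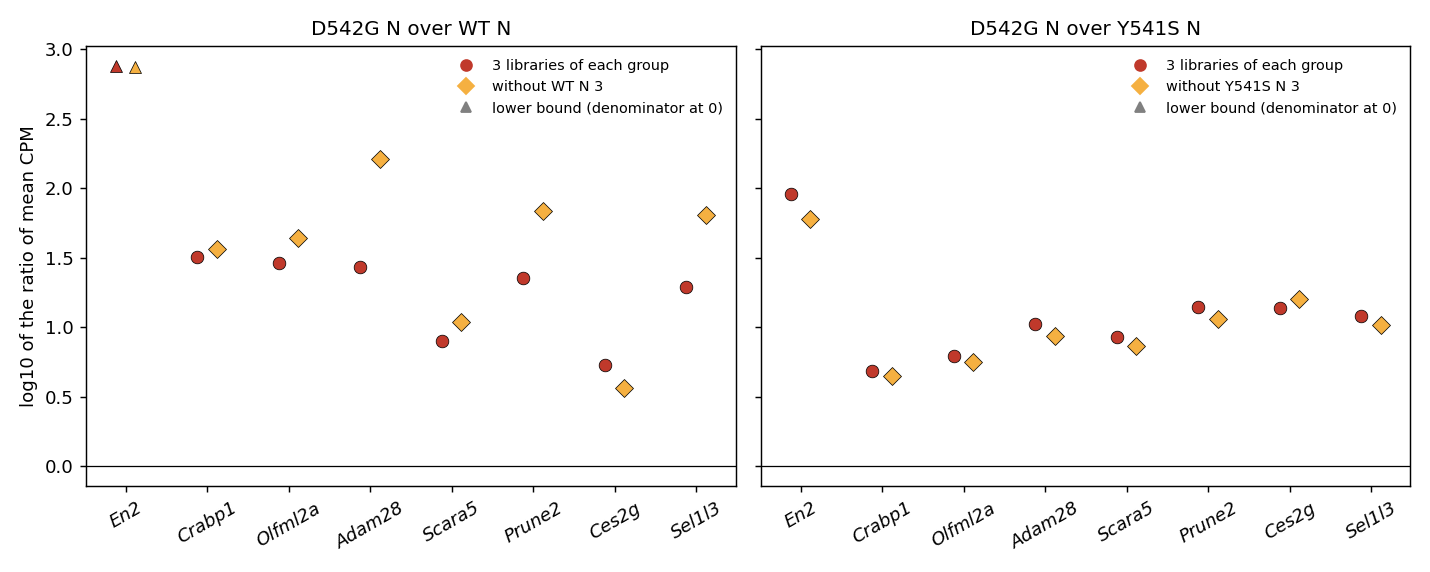
Ratio of mean CPM between N groups for each gene, on a log10 axis, with D542G N over WT N in 1 panel and D542G N over Y541S N in the other, with all libraries and without WT N 3 or Y541S N 3; the En2 ratio to WT N is a lower bound against 3 counts per library. Adam28, Prune2 and Sel1l3 move upward most without WT N 3, and Ces2g moves downward.

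Within the D542G genotype, 7 of the 8 genes were higher in N than in ML. The N libraries were among those that chose the genes, so the differences between gates are a description too. The fitted log2 difference of D542G N and D542G ML was 6.82 ± 1.94 (SE) for En2, 4.74 ± 1.22 for Crabp1, 4.82 ± 0.90 for Olfml2a and 3.24 ± 1.07 for Adam28. It was 4.94 ± 0.80 for Prune2, 4.93 ± 0.94 for Ces2g and 2.28 ± 0.78 for Sel1l3. In these 7 genes the D542G N libraries did not overlap D542G ML, which held for 19.4% of all tested genes in that direction. Scara5 differed by -0.07 ± 0.37.

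The other genotypes showed the same genes at other distances between gates. In Y541S, N was above ML without overlap for 5 of the 8 genes (14.8% of tested genes), Crabp1, Olfml2a, Adam28, Prune2 and Ces2g, with a fitted log2 difference of 3.15 ± 0.75 for Prune2 and 2.58 ± 1.11 for Crabp1. In WT this held for 1 of the 8, Olfml2a (9.29% of tested genes). Without WT N 3 it also held for Ces2g. Fewer libraries overlap less often, and no share of tested genes was computed for that comparison. Scara5 lay in the other direction in both, with a log2 difference of N and ML of -3.52 ± 0.40 in WT and -3.99 ± 0.41 in Y541S, without overlap, as in 9.65% and 15.2% of tested genes. The log2 difference of N and ML for Sel1l3 was 0.02 ± 0.75 in WT with all libraries, -1.71 without WT N 3, and -0.54 ± 0.75 in Y541S. That of Prune2 in WT turned from 1.0 ± 0.70 to -0.59 without WT N 3, and that of Adam28 went from 6.45 ± 1.46 to 3.90, where WT ML held 2 counts. Whether the gate difference of a member differs between genotypes was not tested, because the choice of the genes used the N libraries.

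The ML libraries took no part in the choice, so genotypes were compared there by test. WT ML was uneven in summed markers. The 10 basal and myoepithelial markers summed to 9529, 6539 and 319 CPM in its libraries 1, 2 and 3. The sum was 188 to 442 CPM in D542G ML and 155 to 3095 CPM in Y541S ML. Hair follicle markers summed to 3834, 858 and 1.23 CPM in WT ML, and B and plasma cell markers to 1742, 2920 and 2.10 CPM. Their highest sums were 72.1 and 258 CPM in D542G ML, and 2214 and 2345 CPM in Y541S ML. The part of these cells in the ML comparisons was not tested. Across 18298 genes, edgeR's quasi-likelihood test called 0 genes (0%) in D542G ML against WT ML, 0 (0%) in D542G ML against Y541S ML and 0 (0%) in Y541S ML against WT ML, and so none of the 8. At an unadjusted p under 0.05 there were 1129 genes (6.17%), 886 (4.84%) and 1012 (5.53%), with 4, 2 and 2 of the 8 among them. DESeq2 called 104, 56 and 51 genes, and limma-voom with quality weights 93, 10 and 3. The 3 comparisons share their libraries in pairs. ML and N libraries of the same number also deviated together within a genotype (r between 0.168 and 0.556 in 9 of 9 pairs), so ML values are not fully separate from the N values that chose the genes.

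Adam28 had the smallest p of the 8 in ML cells. It was at 4.83, 2.95 and 7.44 CPM in D542G ML, at 0.38, 1.02 and 2.15 CPM in Y541S ML and at 0.02, 0.03 and 0 CPM in WT ML. The 3 groups did not overlap. WT ML held 2 counts in all, against 688 in D542G ML and 152 in Y541S ML. The ratio of D542G ML to WT ML from these counts was 299 (95% exact binomial interval 82.4 to 2473, counting error only) and that of Y541S ML to WT ML was 70.1 (19.1 to 584). By edgeR's quasi-likelihood test the log2 difference of D542G ML and WT ML was 7.98 ± 1.5, with adjusted p = 0.547, the third smallest p of all genes. DESeq2 called this gene with adjusted p = 1.55e-05, and limma-voom with adjusted p = 0.0427. For Y541S ML against WT ML the log2 difference was 5.88 ± 1.45 with an edgeR adjusted p of 0.865, and DESeq2 gave adjusted p = 0.00979.

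En2, Sel1l3 and Olfml2a were the other members with an unadjusted p under 0.05 in D542G ML against WT ML. En2 was at 0.56, 0.77 and 0.19 CPM in D542G ML, at 0.31, 0 and 0 CPM in Y541S ML and at 0 in WT ML, so the D542G ML mean was at least 6.54-fold above that of WT ML by the limit of 3 counts per library. Sel1l3 was at 18.3, 15.8 and 29.9 CPM in D542G ML and at 1.13, 9.99 and 4.69 CPM in WT ML, a log2 difference of 2.02 ± 0.78 with an edgeR adjusted p of 0.808. Olfml2a was at 9.44, 7.74 and 30.6 CPM in D542G ML and at 0.31, 8.05 and 3.05 CPM in WT ML, which overlapped, and the log2 difference was 2.07 ± 0.81 (edgeR adjusted p = 0.808).

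In D542G ML against WT ML, 3 of the 8 genes (En2, Adam28 and Sel1l3) had all D542G libraries higher, as did 5.65% of tested genes, and 0 of the 8 had all lower (4.74%). In Y541S ML against WT ML, 3 of the 8 (Olfml2a, Adam28 and Sel1l3) had all Y541S libraries higher (7.01% of tested genes) and Prune2 had all lower (5.59%). Prune2 was at 1.35, 0.65 and 1.58 CPM in Y541S ML, at 2.33, 2.96 and 4.51 CPM in WT ML and at 3.44, 3.16 and 7.90 CPM in D542G ML. In D542G ML against Y541S ML, Adam28 and Prune2 had all D542G libraries higher (5.36% of tested genes) and Scara5 had all lower (6.98%). The log2 difference was 2.01 ± 0.72 for Prune2 and -0.83 ± 0.37 for Scara5, both with an edgeR adjusted p of 0.968. The median log2 difference of the 8 was 1.62 in D542G ML against WT ML, beside 0.00 over all tested genes, 0.69 beside -0.01 in D542G ML against Y541S ML, and 1.17 beside 0.02 in Y541S ML against WT ML. With En2 at its lower bound, since WT ML held 0 counts of it, the first of these medians stayed at 1.62 and the last became 0.76.

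Crabp1 and Ces2g showed overlapping libraries in every ML comparison. Crabp1 was at 3.99, 0 and 0.15 CPM in WT ML, at 4.28, 1.48 and 3.99 CPM in D542G ML and at 1.12, 2.02 and 5.78 CPM in Y541S ML. Ces2g was at 12.8, 15.7 and 3.49 CPM in WT ML, at 7.14, 4.41 and 6.66 CPM in D542G ML and at 5.35, 1.37 and 5.22 CPM in Y541S ML. The ML differences and the differences between gates are set side by side in the plot of fitted changes.

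**Figure D3:**
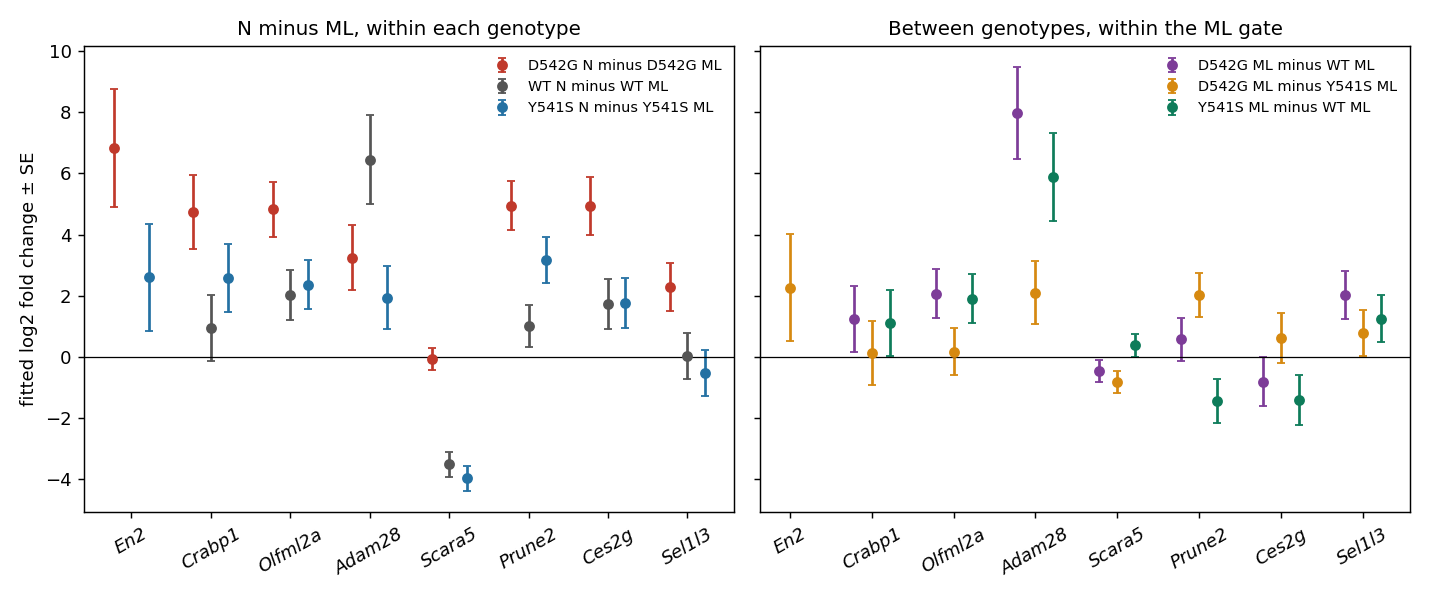
Fitted log2 difference with its SE for each gene, between gates within each genotype (left) and between genotypes within the ML gate (right), from 1 edgeR fit of 18 libraries; En2 differences from WT are left out because WT had 0 counts. On the left Scara5 lies at -0.07 in D542G and near -4 in the other genotypes, and on the right Adam28 lies farthest above 0.

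Summed markers of some cell types differed between N groups, while edgeR called few of the single markers. Of all 18298 tested genes, edgeR called 184 lower in D542G N than in Y541S N and 150 lower than in WT N. The sum of the 10 basal and myoepithelial markers was highest at 16574 CPM in D542G N, below all 3 Y541S N libraries at 21367 to 37210 CPM, and 3 of the 10 were called lower in D542G N than in Y541S N. In WT N that sum was 6137 to 39720 CPM, with the lowest value in WT N 3, and 0 of 10 were called. Pan-luminal markers in D542G N summed to between 3763 and 5185 CPM, against 1402 to 4231 CPM in Y541S N, and 1 of the 6 was called lower in D542G N than in Y541S N. Hormone-sensing luminal markers in D542G N, at the values given above, exceeded Y541S N (516 to 932 CPM) and also WT N 1 and 2 (517 and 576 CPM), and lay below WT N 3 (5290 CPM), with 0 of 9 called. Luminal progenitor markers were lowest in D542G N at 138 to 462 CPM, against 740 to 1329 CPM in WT N, with 1 of 7 called lower, and 549 to 19437 CPM in Y541S N, where library 2 stood apart. No marker of these 4 lists was at 0 in all 3 libraries of a group. Epidermal markers summed to 21.4 to 724 CPM in D542G N, 468 to 9953 CPM in WT N and up to 11645 CPM in Y541S N, with 0 of 7 tested called and Calm4 at 0 throughout. The part of these cell types in the levels of the 8 genes was not tested.

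Scara5 is also known from fibroblasts, so the 10 fibroblast markers were set beside it. The markers summed to 388 to 503 CPM in D542G N, 120 to 217 CPM in WT N and 339 to 491 CPM in Y541S N, and none was at 0 in all 3 libraries of a group. EdgeR called none of the 10 between D542G N and WT N or Y541S N. In this sum D542G N lay above all WT N libraries and overlapped Y541S N. The part of fibroblasts in the level of Scara5 was not tested.

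**Figure D4:**
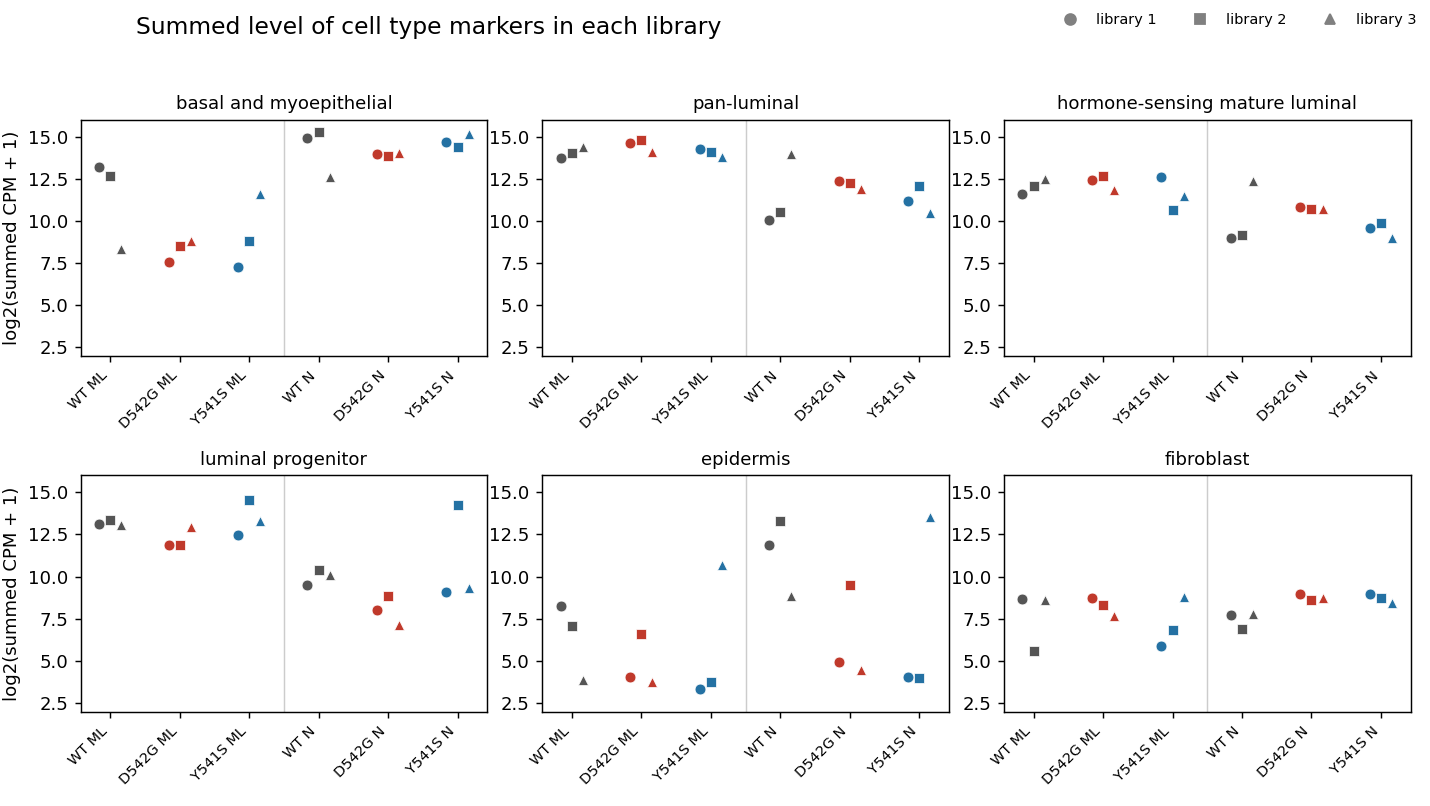
Summed CPM of marker lists in each of the 18 libraries, on a log2 axis, by group, with shapes and colours by library number and genotype as in the plot of levels. D542G N libraries lie close together in the basal, pan-luminal, hormone-sensing and fibroblast lists, while WT N 3 lies with the ML libraries in the pan-luminal list and Y541S N 3 is the highest in the epidermal list.

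The families of the 8 genes were followed through 82 related genes, of which 65 were tested. In D542G N against WT N, 2 of the 65 were called higher and 1 lower by edgeR, against 2.43% of all tested genes called in either direction. Rdh10, a retinol dehydrogenase of the retinoid pathway to which Crabp1 belongs, was at 106 ± 7.95 CPM in D542G N and 27.7 ± 15.3 CPM in WT N (SD, n = 3), a log2 difference of 1.93 ± 0.41 with an edgeR adjusted p of 0.0251. It was not called against Y541S N, where it was at 78.5 ± 20.8 CPM. The Rdh10 call was lost without any 1 of the D542G N libraries, WT N 1 or WT N 2 (edgeR adjusted p up to 0.0998). Without WT N 3 and Y541S N 3 it was called, and the counts over the 65 genes became 4 higher and 7 lower. In that fit the calls over all genes also rose, to 1834 of 18998 tested.

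Against D542G ML, D542G N had 5 of the 65 related genes higher and 4 lower, where 9.2% of all tested genes were called. Of the 20 retinoid genes, 2 were called higher and 2 lower. Outside that list Adgrl2, Scara3 and Rtkn were called higher, and Adgrl3 and Olfm1 lower. The calls of Adgrl2, Scara3, Rtkn and Olfm1 were each lost in at least 1 fit without a single library. Aldh1a3, which makes retinoic acid and is also a luminal progenitor marker, fell by 4.50 ± 0.68 on the log2 scale (edgeR adjusted p = 0.00135). EdgeR also called Aldh1a3 lower in N than in ML in WT and in Y541S. Crabp2, the paralog of Crabp1, fell by 1.75 ± 0.44 (edgeR adjusted p = 0.0235) from 64.9 ± 18.8 to 19.3 ± 7.18 CPM, while Crabp1 was the higher in N. The Crabp2 call was lost without D542G ML 1, D542G ML 3, D542G N 1 or D542G N 3 (edgeR adjusted p up to 0.107). In Y541S, edgeR also called Crabp2 lower in N than in ML. Without WT N 3 and Y541S N 3 the counts became 8 higher and 6 lower, where 2849 of all 18998 tested genes were called. In ML between genotypes, 0 of the 65 were called.

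Among the olfactomedin-domain genes Adgrl3, an adhesion receptor, fell in D542G N. It was at 1.76 ± 1.05 CPM there, 34.2 ± 18.9 CPM in WT N and 25.9 ± 5.77 CPM in Y541S N, with log2 differences of -4.28 ± 0.72 (edgeR adjusted p = 0.00829) and -3.88 ± 0.71 (edgeR adjusted p = 0.0136). In D542G N against Y541S N it was the 1 related gene called, where 1.43% of all tested genes were called. Both calls were lost without D542G N 1 or without D542G N 3 (edgeR adjusted p up to 0.0591 and 0.0996). Olfml2b, the paralog of Olfml2a, had 58.6 ± 4.91 CPM in D542G N and 7.21 ± 4.76 CPM in WT N, which edgeR did not call (adjusted p = 0.0879) and DESeq2 and limma-voom called, as they did against Y541S N. Of the carboxylesterases 7 of 19 were tested, and edgeR called 0 between D542G N and the other N groups with all libraries. Limma-voom called Ces1b and Ces2b higher in D542G N in both contrasts and Ces4a lower than in WT N, and edgeR without WT N 3 and Y541S N 3 called Ces2f higher than in Y541S N and Ces4a lower than in WT N. Ces2b was at 14.7 ± 2.70 CPM and Ces2e at 32.1 ± 14.7 CPM in D542G N, against 0.419 ± 0.726 and 6.49 ± 8.01 CPM in WT N. EdgeR with all libraries called 0 of the tested engrailed cofactors, membrane ADAM proteases and Sel1l relatives in these contrasts, while DESeq2 called Meis2 lower than in WT N and Adam12 lower than in Y541S N. Over all 65 related genes, DESeq2 called 4 higher and 4 lower against WT N and 2 higher and 2 lower against Y541S N. Limma-voom called 12 and 11, and 5 and 3. Of all 18298 tested genes, DESeq2 called 1714 against WT N and 1136 against Y541S N, and limma-voom 4096 and 1221.

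The 8 genes varied together unevenly. Over the 18 libraries, which share gates and genotypes, the Pearson correlation of log2(CPM + 1) had a median of 0.769 over the 28 pairs. Pairs with Scara5 had r from -0.199 to 0.415, and pairs without it at least 0.407. Over the 9 N libraries the median was 0.92, and the pairs of Scara5 with En2 (0.962), Sel1l3 (0.957) and Adam28 (0.955) were as close as others. Over the 9 ML libraries the median was 0.116. In N libraries these values mostly repeat the step between D542G and the other genotypes that chose the genes.

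Of 9616 well-expressed genes outside the list, Nrip1 followed the mean profile of the 8 most closely (r = 0.940 over 18 libraries). Nrip1, a corepressor of nuclear receptors and a known estrogen target, was at 943 ± 150 CPM in D542G N, and its lowest D542G N library (771 CPM) was above the highest of the others (451 CPM). Sncaip (r = 0.939), the gene of synphilin, was at 187 ± 9.66 CPM in D542G N and at most 35.9 CPM elsewhere. Tgfb1 (0.923), Slc39a4 (0.918), Fat1 (0.916) and Sesn3 (0.916) came next. The closest single gene was Nrip1 for En2 (0.949), Tgfb1 for Crabp1 (0.943) and Adam28 (0.914), Rasa4 for Olfml2a (0.947), Scmh1 for Prune2 (0.969), Robo2 for Ces2g (0.911), Cdc42ep4 for Sel1l3 (0.920) and Gdpd1 for Scara5 (0.915). These correlations carry no test, since the profile was chosen.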

How the data were processed

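RNA of FACS-sorted mouse mammary cells was measured in 18 Nextera XT libraries, per the labels' protocols. The authors deposited a whole-number count and an RPKM value per gene for 52636 genes, per the file headers; the build was GRCm38 per the submitters' processing notes. No source used here names the aligner, the counter or the strand setting. RPKM values deposited by the authors divide by a width that includes introns and were not used. Groups followed the labels' genotype and cell type, with 3 biological replicates each. No label says whether libraries of a number share an animal, so p-values measure the spread between these libraries. The deviations of N and ML libraries of the same number within a genotype correlated in 9 of 9 pairs (r 0.168 to 0.556), and these were treated as pairs in 1 alternative.

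The tests used edgeR 4.0.16 under R 4.3.3 (filterByExpr on 6 groups, minimum count 10 and total 15; TMM; quasi-likelihood test of all 18 libraries on 6 group means, 12 residual degrees of freedom). P-values were adjusted by Benjamini-Hochberg over 18298 genes and called under 0.05. The SE of an edgeR difference was derived from the test, as the absolute log2 difference divided by the square root of its quasi-likelihood F statistic. For the differences given as a description, it is no separate measure of spread. Ratios are of mean CPM, with 3 counts per library as the floor for groups at 0. In data simulated for D542G ML against WT ML, 58% of genes changed 4-fold and 89% changed 32-fold were recovered. The changed genes were drawn above a minimum average level. Simulated libraries were independent draws, with no shared deviations and none made to stand apart. Recovery in the real libraries, or for genes at low counts, is therefore not given by these shares. Alternatives were DESeq2 1.42.0, limma-voom 3.58.1 with quality weights, other size factors, no filter, the fit on 1 gate, replicate blocks and each library left out; leaving out WT N 3 and Y541S N 3 together was chosen after seeing the data. The 8 genes, the lists and the tests were chosen with earlier results of these data known. The named genes are the 8, up to 3 called genes of each related list per contrast, and the genes with the highest correlation among those of average log2 CPM of at least 3. The values of 1 related gene are not reported here. Ces1b, Ces2b, Ces2e, Ces2f, Ces4a, Olfml2b, Meis2 and Adam12 are outside that rule and were named after their values were seen.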

Additional observations from a re-analysis of the deposited data

How the results depend on the processing

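For the 8 genes in the 3 ML comparisons, 588 of 600 recomputed values kept direction and side of the threshold, 8 changed sign, 1 became 0 and 3 passed it: Adam28 by DESeq2 in D542G and in Y541S against WT, and by limma-voom in D542G against WT. The sign changes were in 2 results. Crabp1 in D542G ML against Y541S ML was 0.13 in the fit of all libraries, -0.077 with the replicate block by library number, -0.27 by limma-voom, and -0.27 to 1.05 without 1 library, negative without D542G ML 1, D542G ML 3, Y541S ML 1 or Y541S ML 2. Olfml2a in the same comparison was 0.16, then -0.58 by limma-voom and -0.73 (without D542G ML 3) to 0.50 without 1 library. En2 in Y541S ML against WT ML, 5.16 with all libraries, became 0 without Y541S ML 1 and was at most 5.74 without 1 library, fits that have no bound because WT ML had 0 counts. Of 400 recomputed differences between D542G N and WT N or Y541S N, whose sign the choice of the genes fixes, 19 moved by more than the replicate spread, among them Adam28 against WT N from 4.76 to 8.57 by limma-voom and 7.33 without WT N 3. The cause was not tested.

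Counts of called genes moved with the tool. In the 3 ML comparisons edgeR gave 0, DESeq2 104 (D542G against WT), 56 (D542G against Y541S) and 51 (Y541S against WT), and limma-voom 93, 10 and 3. Leaving out 1 library gave 0 to 1, 0 to 0 and 0 to 1. For D542G N against WT N (444) the counts were 1714 by DESeq2, 4096 by limma-voom, 277 without the filter, 170 from the N gate alone, 1834 without WT N 3 and Y541S N 3, and 92 to 1342 without 1 library. For D542G N against Y541S N (261) they were 1136, 1221 by limma-voom, 563 without both libraries and 56 to 501 without 1. For D542G N against D542G ML (1684) they were 3187, 5862, 2849 and 702 to 2545. For WT N against WT ML (646) they were 2066, 5167, 3310 and 157 to 2965, and for Y541S N against Y541S ML (1272) 2496 by DESeq2, 2595 by limma-voom and 571 to 2045. Each upper end of these N ranges came from leaving out WT N 3.

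With a replicate block by library number, D542G N against WT N had 309 calls and WT N against WT ML 409. With N and ML libraries of 1 number as pairs within a genotype, D542G N against D542G ML had 1955 calls, WT N against WT ML 900 and Y541S N against Y541S ML 1589. Library numbers did not pair samples across genotypes within a gate (r -0.543 to 0.298, 4 of 18 pairs over 0.1). The block changed no call of the 8 genes in ML. Depth limits En2 and Adam28 in WT ML, where 0 and 2 counts were found.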
